A study of Mus musculus with 3 samples.

Results

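Genes of antibody and complement recognition in macrophages are described here, 10 in all and chosen by symbol: the Fcγ receptor genes Fcgr1, Fcgr2b, Fcgr3 and Fcgr4, the signalling chain gene Fcer1g, the complement genes C1qa, C1qb, C1qc and C3, and the properdin gene Cfp. They are 10 of the 55536 annotated genes measured, and all 10 were found. The single group of the study consists of 3 libraries of RNA from the cytosol of cultured bone marrow macrophages of C57BL/6J mice, given lipid A at 100 ng/ml for 25 min. Lipid A is the part of bacterial lipopolysaccharide that the receptor TLR4 recognises. Each library was made from 1 µg of total RNA after removal of ribosomal RNA. The libraries are labelled biological replicates 1, 2 and 3 and share a donor record, so the spread between them may be partly technical. No unstimulated sample is part of the series, so no value below says what lipid A did, and a sign-flip test over 3 libraries could not go below p = 0.25 in an exact permutation, so no test is given.

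Expected counts totalled 53055764, 43620362 and 38623777 in replicates 1, 2 and 3, and 3 counts of the part on annotated genes (52956907, 43547422 and 38608503) correspond to 0.0566, 0.0689 and 0.0777 CPM, the count scaled by library size. Of the macrophage markers examined, 7 of 7 reached 1 TPM (transcript abundance corrected for length and scaled to the same total in each library) in every library, led by Lyz2, the lysozyme of macrophages, at 4945 ± 1494 TPM (SD, n = 3). Of 6 neutrophil markers, 2 reached 1 TPM in every library, with a summed level of 26.0, 43.7 and 30.1 TPM in replicates 1, 2 and 3. None of the B cell, NK cell, mast cell, dendritic cell, fibroblast and hepatocyte markers reached 1 TPM in every library, and all 6 hepatocyte markers had 0 counts. Nuclear protein-coding genes held 22.7, 22.9 and 29.8% of all TPM in replicates 1, 2 and 3, so a gene at a constant share of these genes has a higher TPM in replicate 3. In bulk RNA, fewer cells that express a gene and less RNA per cell cannot be told apart.

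Fcγ receptors bind the constant part of IgG on opsonised particles and immune complexes. The activating receptors signal through the γ chain encoded by Fcer1g, which carries an immunoreceptor tyrosine-based activation motif (ITAM), while FcγRIIB carries an inhibitory motif (ITIM) in its own tail and dampens that signal. C1q, built from equal numbers of A, B and C chains, also recognises bound IgG and starts the classical complement pathway. C3 is the central component on which the complement pathways converge, and properdin stabilises the alternative pathway convertase that cleaves it. Macrophages are a known source of C1q and properdin, and the liver is the main source of serum C3.

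All 10 genes reached 1 TPM in every library, against 41.3% of the 22015 nuclear protein-coding genes; in the alignment-free tables C3 did not, with 0.660 TPM in replicate 2. Their median level was 177 ± 43.3 TPM (SD, n = 3), while the median of the nuclear protein-coding genes detected in this way was 7.78 ± 1.27 TPM. The 10 genes together held 1.02, 0.984 and 1.12% of the nuclear protein-coding TPM in replicates 1, 2 and 3. C1qb and C1qc alone made up 47.6, 52.8 and 50.7% of the summed TPM of the 10 genes. By mean TPM the order was C1qb, C1qc, Fcer1g, Cfp, Fcgr3, Fcgr2b, C1qa, Fcgr1, Fcgr4 and C3. Ranges over the libraries did not overlap between Fcer1g and Cfp, between Fcgr2b and C1qa, or between Fcgr4 and C3, and they overlapped between the other 6 neighbouring pairs. Rescaled over nuclear protein-coding genes alone, C1qb had 2854, 3021 and 3290 TPM in replicates 1, 2 and 3, and C3 had 12.6, 10.3 and 20.2 TPM. On that scale Cfp was lowest in replicate 3, at 791 TPM against 908 and 970 TPM in replicates 1 and 2, although its deposited TPM was highest there.

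**Figure D1:**
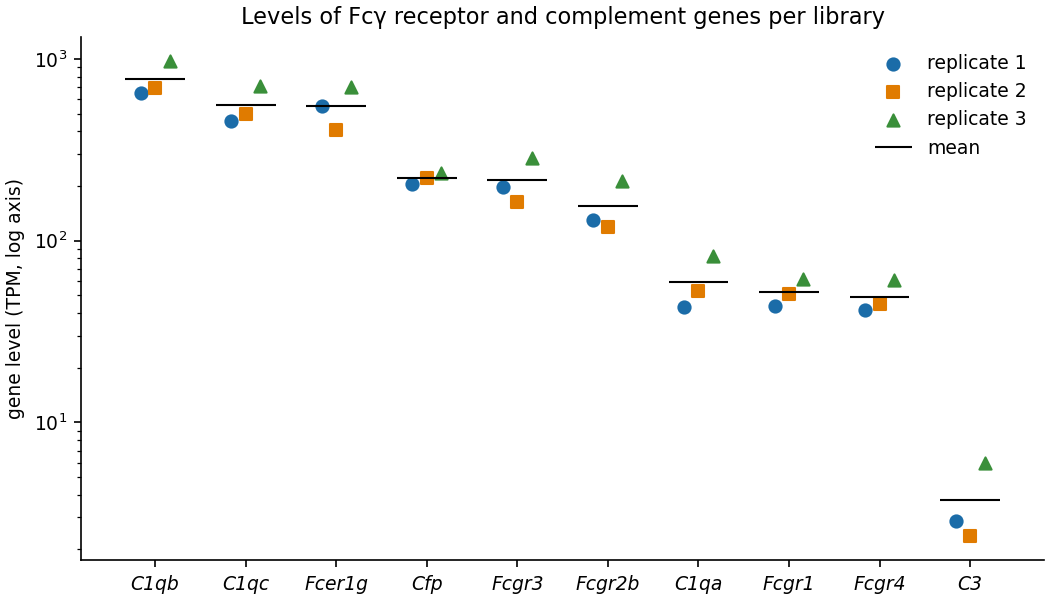
Levels of the 10 genes in TPM on a log axis, with a point for each of replicates 1, 2 and 3 and a line at their mean. C1qb, C1qc and Fcer1g lie highest, at 407.11 to 979.28 TPM, and C3 lies lowest, at 2.36 to 6.01 TPM.

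Among the Fcγ receptor genes, Fcgr3 had the highest TPM and the inhibitory Fcgr2b was the next. Fcgr3, encoding the low-affinity activating receptor FcγRIII (ENSMUSG00000059498.13, mm10 chr1:171051174-171064935, minus strand), had 197.73, 162.51 and 283.75 TPM in replicates 1, 2 and 3, a mean of 215 ± 62.4 TPM (SD, n = 3). Fcgr2b, encoding the only inhibitory receptor of the family (ENSMUSG00000026656.15, chr1:170958617-170976547, minus strand), had 130.16, 119.47 and 214.09 TPM, a mean of 155 ± 51.8 TPM. The ranges of Fcgr3 and Fcgr2b overlapped, but Fcgr3 was the higher of the pair in 3 of 3 libraries, by 0.48 ± 0.10 on the log2 scale. Fcgr1, the high-affinity receptor gene (ENSMUSG00000015947.10, chr3:96282909-96293969, minus strand), had 43.65, 51.05 and 61.68 TPM, a mean of 52.1 ± 9.06 TPM. Fcgr4, encoding the activating receptor FcγRIV (ENSMUSG00000059089.4, chr1:171018920-171029761, plus strand), had 41.41, 44.95 and 60.83 TPM, a mean of 49.1 ± 10.3 TPM. Their ranges overlapped, and Fcgr1 was the higher of the pair in 3 of 3 libraries, by 0.09 ± 0.08 on the log2 scale.

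Fcgr3 carried most of the activating receptor RNA, at 69.9, 62.9 and 69.8% of the summed TPM of Fcgr1, Fcgr3 and Fcgr4 in replicates 1, 2 and 3. Fcgr1 made up 15.4, 19.7 and 15.2% of that sum, and Fcgr4 14.6, 17.4 and 15.0%. Activating receptors summed to 283, 259 and 406 TPM. The activating sum was 2.17, 2.16 and 1.90 times the TPM of Fcgr2b, a log2 ratio of 1.05 ± 0.11 (SD, n = 3). The ratio was lowest in replicate 3, and the alignment-free tables gave 2.09, 2.14 and 1.85.

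Fcer1g (ENSMUSG00000058715.11, chr1:171229572-171234365, minus strand) lay below C1qb and close to C1qc in mean TPM. Its product is required for surface expression and signalling of the activating Fcγ receptors. The log2 difference of C1qc over Fcer1g was 0.01 ± 0.28, with C1qc the higher in 2 of 3 libraries. Fcer1g had 547.12, 407.11 and 704.17 TPM in replicates 1, 2 and 3, a mean of 553 ± 149 TPM (SD, n = 3). Its TPM was 1.93, 1.57 and 1.73 times the activating receptor sum, a log2 ratio of 0.80 ± 0.15. This compares RNA levels only, and protein was not measured. The γ chain also pairs with other receptors of myeloid cells that are not counted in that sum. Its coding sequence of 86 codons (the leading transcript Fcer1g-201, from the exons in chr1:171229868-171234245 of mm10, minus strand) is shown because the 15 codons in capitals are the ITAM through which Fcgr1, Fcgr3 and Fcgr4 signal.
Fcer1g: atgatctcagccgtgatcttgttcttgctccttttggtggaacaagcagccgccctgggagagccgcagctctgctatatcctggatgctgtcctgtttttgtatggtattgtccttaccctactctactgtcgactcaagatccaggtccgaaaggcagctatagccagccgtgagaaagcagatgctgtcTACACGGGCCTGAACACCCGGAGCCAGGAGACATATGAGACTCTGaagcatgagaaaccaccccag

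The inhibitory counterpart is in the tail of Fcgr2b. Capitals in the coding end of Fcgr2b-201, joined from the last exons (chr1:170961017-170961233 of mm10, minus strand), mark the 6 codons of its ITIM. It was the only match to the motif in this part, and matches elsewhere in the protein or in Fcgr2b-202 were not examined.
Fcgr2b: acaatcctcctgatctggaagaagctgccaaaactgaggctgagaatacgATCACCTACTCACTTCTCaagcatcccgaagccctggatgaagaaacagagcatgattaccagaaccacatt

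Fcgr2b-202 was the leading Fcgr2b transcript, with 62.3, 60.9 and 63.2% of the gene's TPM in replicates 1, 2 and 3, a mean of 62.2 ± 1.20% (SD, n = 3). Fcgr2b-201 had 35.0, 35.0 and 34.7%. By expected counts, the longer Fcgr2b-201 (3544 against 1462 bases) held the larger share, 58.8 ± 0.356% against 39.4 ± 0.906% for Fcgr2b-202. These transcripts differ in the coding part by exon 6 of Fcgr2b-201, of 141 bases or 47 codons, shown here (chr1:170963325-170963465 of mm10, minus strand, the whole exon in capitals).
Fcgr2b exon 6: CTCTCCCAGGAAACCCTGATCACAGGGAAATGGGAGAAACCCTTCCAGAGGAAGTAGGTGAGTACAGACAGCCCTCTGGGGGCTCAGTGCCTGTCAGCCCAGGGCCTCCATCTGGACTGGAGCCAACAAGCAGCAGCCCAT
An insert in the cytoplasmic tail is what separates the b1 form of FcγRIIB, known from B cells, from the b2 form, known from macrophages. The transcripts also differ in their last exon, of 2484 bases in Fcgr2b-201 and 543 bases in Fcgr2b-202, so the share of Fcgr2b-201 does not measure inclusion of the coding exon alone. B cell markers were below 1 TPM in at least 1 library for all 5 genes examined, the highest being Cd79b, an antigen receptor chain, at 0.76, 0.95 and 1.08 TPM. Which cells the Fcgr2b-201 RNA came from was not tested.

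Fcgr2b and Fcgr3 resemble each other over the exons for the extracellular domains, which bears on how reads were assigned between them. Of the 31-base words in Fcgr2b-202, 16.3% also occur in Fcgr3, and 17.7% of those in Fcgr3-201 occur in Fcgr2b. Over exon 4 the genes are 98.0% identical with 5 differing bases of 255, and over exon 3 they are 94.5% identical with 14 differing bases. Both versions of exon 4 are shown with the differing bases in capitals (mm10, minus strand, chr1:170966446-170966700 for Fcgr2b and chr1:171053939-171054193 for Fcgr3).
Fcgr2b exon 4: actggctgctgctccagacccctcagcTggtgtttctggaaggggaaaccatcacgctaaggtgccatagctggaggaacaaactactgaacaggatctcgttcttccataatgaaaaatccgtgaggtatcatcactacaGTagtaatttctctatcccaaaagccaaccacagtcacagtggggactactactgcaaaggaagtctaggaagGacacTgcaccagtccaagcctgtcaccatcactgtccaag
Fcgr3 exon 4: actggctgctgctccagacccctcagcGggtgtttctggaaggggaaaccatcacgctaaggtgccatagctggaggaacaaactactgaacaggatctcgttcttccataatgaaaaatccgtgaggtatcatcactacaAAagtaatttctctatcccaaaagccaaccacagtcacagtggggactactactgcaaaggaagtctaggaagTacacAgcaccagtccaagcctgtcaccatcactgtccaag
Reads that fall inside such stretches were divided by the quantification, so the ratio of Fcgr3 to Fcgr2b is uncertain to that extent. It was 1.52, 1.36 and 1.33 in the alignment-based tables and 1.40, 1.26 and 1.24 in the alignment-free tables for replicates 1, 2 and 3. Fcgr3 was thus higher in TPM in 3 of 3 libraries by either method. By expected counts, which are not corrected for length, Fcgr2b was the higher in every library. It had 26488, 18927 and 24891 counts in replicates 1, 2 and 3, against 23024, 14731 and 19055 for Fcgr3. The mean effective length was 1977 bases for Fcgr2b and 1135 bases for Fcgr3. Fcgr1, Fcer1g, C1qa, C1qb, C1qc, C3 and Cfp shared no 31-base word with another gene, and the leading transcript of Fcgr4 shared 1.31% of its words. Gm38204, an antisense gene over Fcgr2b, had 4, 1 and 1 counts. No source used here gives the strandedness of the counting, and the part of antisense reads in the Fcgr2b level was not tested.

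The C1q chains differed widely in measured level, with C1qa far below its partners. The chains are used in equal numbers in the protein, which was not measured. The C1qa value was not checked in the reads, which were not used here. C1qb, the B chain gene (ENSMUSG00000036905.8, chr4:136880129-136886187, minus strand), had 646.98, 690.74 and 979.28 TPM in replicates 1, 2 and 3, a mean of 772 ± 181 TPM (SD, n = 3), and ranked 24 to 28 among 22015 nuclear protein-coding genes. C1qc, the C chain gene (ENSMUSG00000036896.5, chr4:136889804-136893065, minus strand), had 453.4, 498.14 and 713.79 TPM, a mean of 555 ± 139 TPM, and ranked 33 to 46. C1qa, the A chain gene (ENSMUSG00000036887.5, chr4:136895917-136898803, minus strand), had 42.93, 52.52 and 82.27 TPM, a mean of 59.2 ± 20.5 TPM, and ranked 549 to 791. The lowest value of C1qc lay well above the highest value of C1qa.

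Within a library, C1qb exceeded C1qa by 15.1, 13.2 and 11.9 times in TPM, so the log2 ratio of C1qa to C1qb was -3.73 ± 0.17 (SD, n = 3). C1qc exceeded C1qa by 10.6, 9.48 and 8.68 times, a log2 ratio of C1qa to C1qc of -3.25 ± 0.14. C1qc and C1qb kept nearly the same ratio in every library, 0.701, 0.721 and 0.729, a log2 ratio of -0.48 ± 0.03. The alignment-free tables gave -3.72 for C1qa over C1qb and -0.46 for C1qc over C1qb, closer to the alignment-based values than the SD between libraries. The C1q genes lie side by side within 18675 bases on chromosome 4, each chain gene has 3 exons in its leading transcript, and no gene annotated in GENCODE M21 overlaps any of them. The leading transcripts are of like length, 1040 bases for C1qa, 1088 for C1qb and 1203 for C1qc. GC content was 59.5% for C1qa, 57.4% for C1qb and 57.5% for C1qc, and its part in the lower C1qa level was not tested. The C1qa value rests on 3649, 3481 and 4061 expected counts, so counting error is small beside the gap to the other chains.

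**Figure D2:**
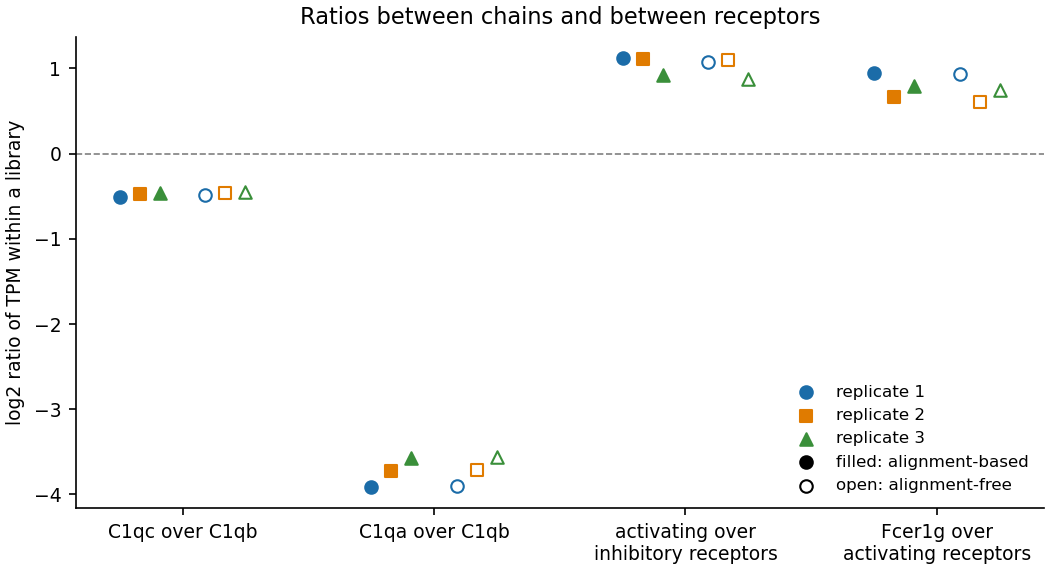
Log2 ratios of TPM within each library for C1qc over C1qb, C1qa over C1qb, activating over inhibitory Fcγ receptors and Fcer1g over activating receptors. Filled points are alignment-based and open points alignment-free values of replicates 1, 2 and 3, and C1qa over C1qb lies between -3.91 and -3.56 in both kinds of table.

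Cfp was abundant, while C3 lay below the median of the detected nuclear protein-coding genes in each library. Cfp, encoding properdin (ENSMUSG00000001128.7, chrX:20925454-20931555, minus strand), had 205.84, 221.89 and 235.33 TPM in replicates 1, 2 and 3, a mean of 221 ± 14.8 TPM (SD, n = 3). C3 (ENSMUSG00000024164.15, chr17:57203970-57228136, minus strand) had 2.85, 2.36 and 6.01 TPM, a mean of 3.74 ± 1.98 TPM, with the value of replicate 3 above the others. The TPM of Cfp was 72.2, 94.0 and 39.2 times that of C3. C3 ranked 5844 to 7806 among nuclear protein-coding genes, and its level rests on 1186, 932 and 1583 expected counts.

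Of the other Fc receptors and Fc receptor signalling genes, 30 of 41 reached 1 TPM in every library, against 41.3% of the 22015 nuclear protein-coding genes. Of the 28 signalling genes listed, 26 were detected, and the median over all 28 was 23.8 ± 4.01 TPM (SD, n = 3). The GTPase genes Cdc42 and Rac1, which drive actin remodelling in phagocytosis, averaged 182 ± 25.6 and 111 ± 19.7 TPM, and the adaptor gene Grb2 averaged 105 ± 28.6 TPM. The Src family kinase gene Fgr was low, at 0.18, 0.25 and 0.30 TPM. Of 13 other Fc receptors, 4 were detected, among them Fcgrt, the neonatal IgG receptor chain, at 61.3 ± 12.8 TPM, the Fc receptor-like gene Fcrls at 35.3 ± 16.6 TPM, and Trim21, the cytosolic antibody receptor, at 6.22 ± 1.71 TPM. Fcamr, the receptor for IgA and IgM, had 0 counts in every library.

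Of the other complement genes, 12 of 50 reached 1 TPM in every library, against 41.3% of the 22015 nuclear protein-coding genes. Of these 12, 8 are from the list of complement receptors, which takes in binding partners such as Calr. Calr, encoding calreticulin, which binds C1q, had 206.23, 280.87 and 248.03 TPM in replicates 1, 2 and 3. C3ar1, the receptor gene for the C3a fragment, had 166.12, 186.96 and 211.39 TPM. Lrp1, an endocytic receptor gene that acts with calreticulin, had 150.15, 257.42 and 150.72 TPM. C3ar1 thus exceeded C3 itself in TPM in every library. Vsig4, the complement receptor of tissue-resident macrophages, had at most 2 counts in a library, and Megf10, a C1q-binding engulfment receptor gene, had 0 counts.

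The genes for C1r, C1s, C2 and C4, which act after C1q, were at 1.14 TPM or below in every library. None of these 7 classical pathway genes reached 1 TPM in every library, and the highest, C1ra, a gene for the protease C1r, had 0.68, 0.76 and 1.14 TPM. C2 had 0.30, 0.13 and 0.25 TPM, C4b had 0.13, 0.05 and 0.18 TPM, and C1rb had 0 counts in every library. Of 8 lectin pathway genes only Fcna, for ficolin A, reached 1 TPM in every library, with 2.81, 3.69 and 4.43 TPM. In the alternative pathway, which properdin serves, Cfb, for factor B, had 0.35, 0.48 and 0.54 TPM, and Cfd, for factor D, had 0 counts. Of 7 terminal pathway genes, 6 had 0 counts in every library, and C8g had 0.22, 0.30 and 0.42 TPM.

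Against 41.3% of the nuclear protein-coding genes, 3 of 14 complement regulators reached 1 TPM in every library. Among these, Cr1l, a membrane regulator of C3 convertases in rodents, had 19.74, 17.83 and 29.54 TPM, and Cd59a, an inhibitor of the membrane attack complex, had 1.28, 1.40 and 1.93 TPM. Serping1, for the inhibitor of C1r and C1s, and Cfi, for factor I, had 0 counts in the alignment-based tables of all 3 libraries.

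**Figure D3:**
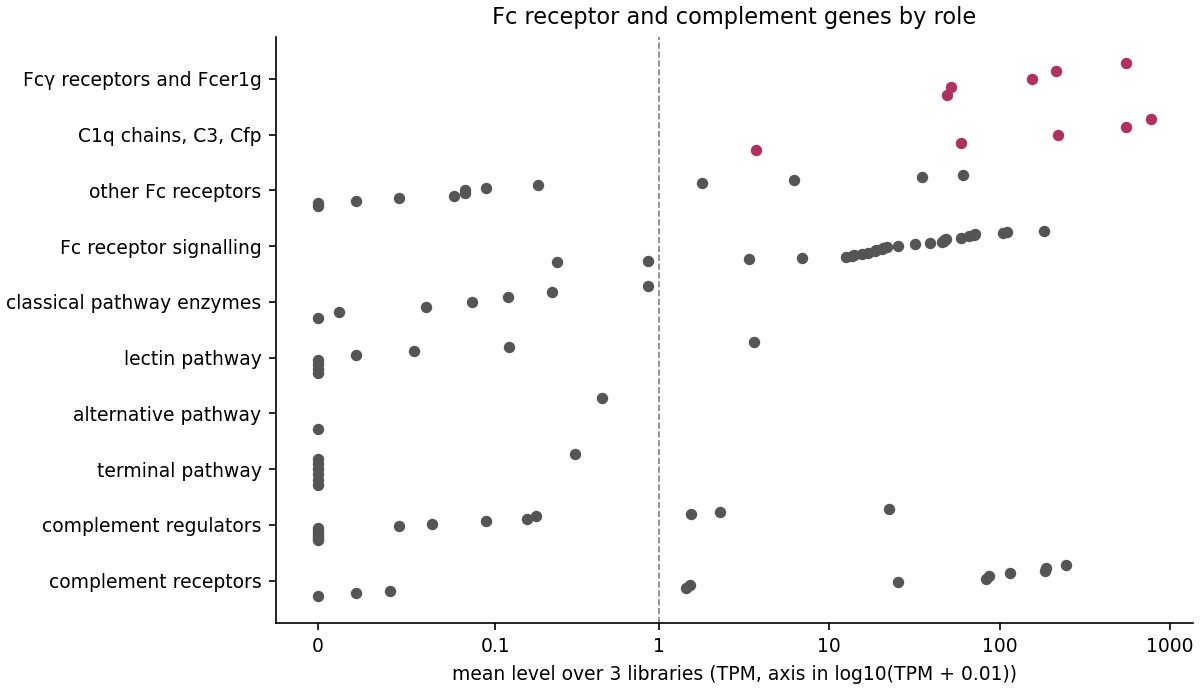
Mean TPM over the 3 libraries for each gene of the Fc receptor and complement lists, on an axis of log10(TPM + 0.01), with a dashed line at 1 TPM. The 10 genes described are in red in the top rows, and the terminal pathway row holds 6 of its 7 genes at 0.

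Alternative transcripts took little of the RNA of most of these genes. The 10 genes have 27 annotated transcripts, 9 of them of a type other than protein-coding, and C1qa, C1qb and Fcgr4 have a single transcript each. Over the 7 genes with several transcripts, the median share on other types was 1.98, 2.15 and 1.89% of gene TPM in replicates 1, 2 and 3. Over the 3165 genes of 10 TPM or more with such a transcript, the median was 2.45, 4.27 and 2.55%. In 6 of the 7 genes this share was highest in replicate 2, as it was in 61.4% of the 3165 genes. Among these 6, Cfp had nearly the same share in replicates 2 and 3, 2.15 and 2.14%. In the alignment-free tables the share of Fcgr3 was highest in replicate 3, at 2.66% against 2.50% in replicate 2. Malat1, a nuclear noncoding RNA, was also highest in replicate 2, with 392, 1144 and 374 TPM in replicates 1, 2 and 3, and its part in the shares was not tested.

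Fcgr1 had the share that depended most on the method. Its nonsense-mediated decay transcript Fcgr1-202, of 600 bases against 2589 for the coding Fcgr1-201, took 6.35, 11.3 and 2.24% of the gene's TPM in the alignment-based tables. In the alignment-free tables it took 28.5, 33.5 and 21.3%, above the highest alignment-based value in all libraries. Fcgr3-201, the leading Fcgr3 transcript, held 89.6 ± 0.865% of that gene's TPM (SD, n = 3), and the coding transcript Fcgr3-204 held 8.26 ± 0.546%. The retained-intron transcript of Fcgr3 held 2.14 ± 0.376%. In C3 the processed transcript C3-202 took 20.0, 0 and 9.67%, which amounts to 26.2, 0 and 15.9 expected counts, so its share was poorly measured. The leading transcripts of Fcer1g, C1qc and Cfp held 99.4 ± 0.156, 99.7 ± 0.163 and 98.2 ± 0.549%.

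**Figure D4:**
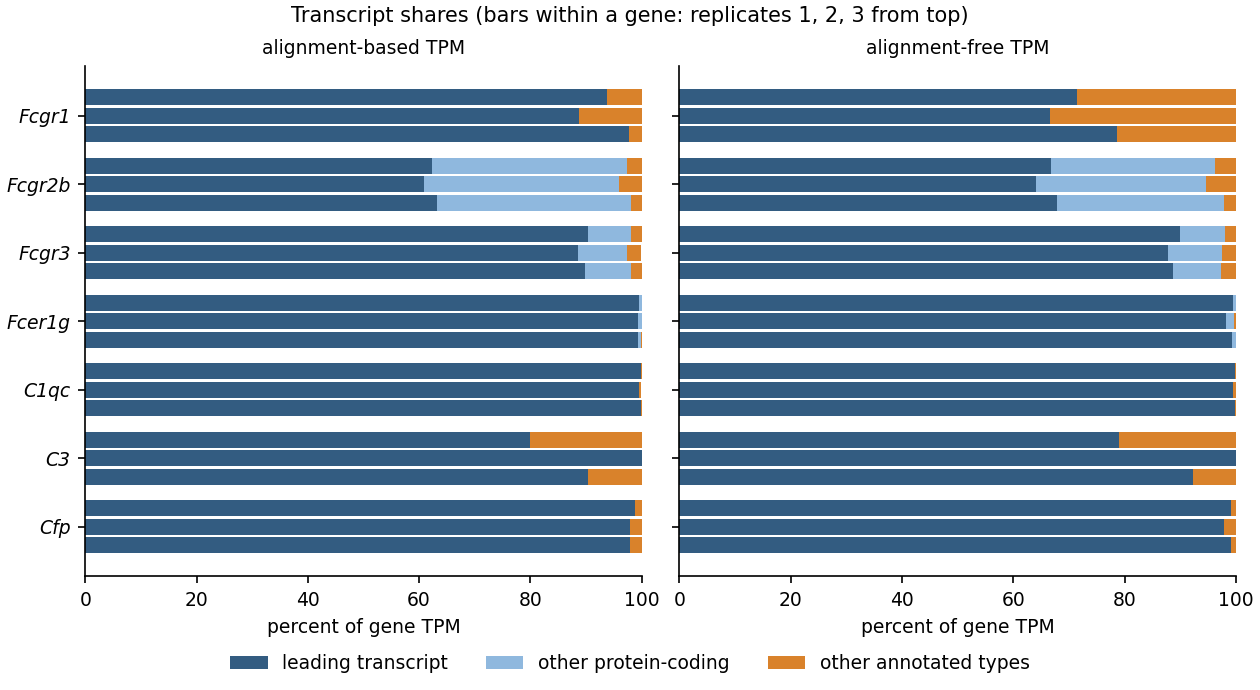
Percent of gene TPM on the leading transcript, on other protein-coding transcripts and on other annotated types for the 7 genes with several transcripts, with alignment-based values on the left, alignment-free values on the right and replicates 1, 2 and 3 from top to bottom within a gene. The other-type share of Fcgr1 is 2.24 to 11.3% on the left and 21.3 to 33.5% on the right.

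Between libraries the 10 genes were compared as log2 CPM of the counts scaled with edgeR's TMM factors, which is not tied to the share of TPM on other RNAs. None of the 10 differed over 2-fold between any pair of libraries, while such differences were seen for 1.57% of the 10348 genes averaging at least 100 counts between replicates 2 and 1, for 0.522% between replicates 3 and 1, and for 2.88% between replicates 3 and 2. With 10 genes, a count of 0 is close to what these shares give. The median SD over libraries was 0.193 for the 10 genes and 0.106 for the 10348 genes. This difference rested on replicate 3: without it the median SD was 0.0526 for the 10 genes and 0.0905 for the 10348 genes. With all 3 libraries, the median SD was 0.0871 over the 5094 genes at least as abundant in mean log2 CPM as C3, the lowest of the 10 genes. With no filter on counts the median SD was 0.211 for the 10 genes and 0.288 over 22335 genes, low counts included.

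Fcer1g, Fcgr3 and Fcgr2b were lowest in replicate 2. Deviations of log2 CPM from the mean of the 3 libraries were 0.16, -0.33 and 0.17 for Fcer1g, 0.08, -0.28 and 0.20 for Fcgr3, and -0.04, -0.23 and 0.27 for Fcgr2b in replicates 1, 2 and 3. Fcgr1 and Fcgr4 varied less, with deviations between -0.08 and 0.09. The 6 neutrophil markers had their highest sum in replicate 2, led by S100a9 at 15.94, 27.35 and 17.35 TPM in replicates 1, 2 and 3. Of these 6 markers, 4 were below 1 TPM in all libraries. Neutrophils also express Fcer1g and Fcgr3, and the part of such cells in these values was not tested. Genes with short transcripts as a whole were lower in that library, with a median deviation of 0.05, -0.15 and 0.09 over 280 genes of effective length up to 500 bases, to which Fcer1g belongs at 465 bases. At 1000 to 2500 bases, the class of Fcgr3 and Fcgr2b, the median deviation in replicate 2 was -0.01 over 3840 genes. The length classes were chosen after the values were seen, and the part of transcript length in the Fcer1g values was not tested.

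The C1q genes and C3 were highest in replicate 3, as were the Fcγ receptor genes and, by only 0.01 in log2 CPM over replicate 1, Fcer1g. Deviations were -0.26, -0.04 and 0.29 for C1qa, -0.08, -0.05 and 0.13 for C1qb, -0.11, -0.05 and 0.15 for C1qc, and -0.25, -0.31 and 0.56 for C3 in replicates 1, 2 and 3. C3 in replicate 3 was 1.76 times the level in replicate 1 and 1.83 times that in replicate 2, the widest spread of the 10 genes. Cfp went the other way, with deviations of 0.07, 0.09 and -0.16, so it was lowest in replicate 3. Of 9917 nuclear protein-coding genes compared, the one whose centred log2 CPM lay nearest to C3 was Dusp2, a phosphatase gene, at a root mean square distance of 0.021, and 6 genes lay within 0.05. Rpl29, a ribosomal protein gene, was nearest to Fcer1g, with 84 genes within 0.05. With 3 libraries such likeness is a description of these libraries.

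**Figure D5:**
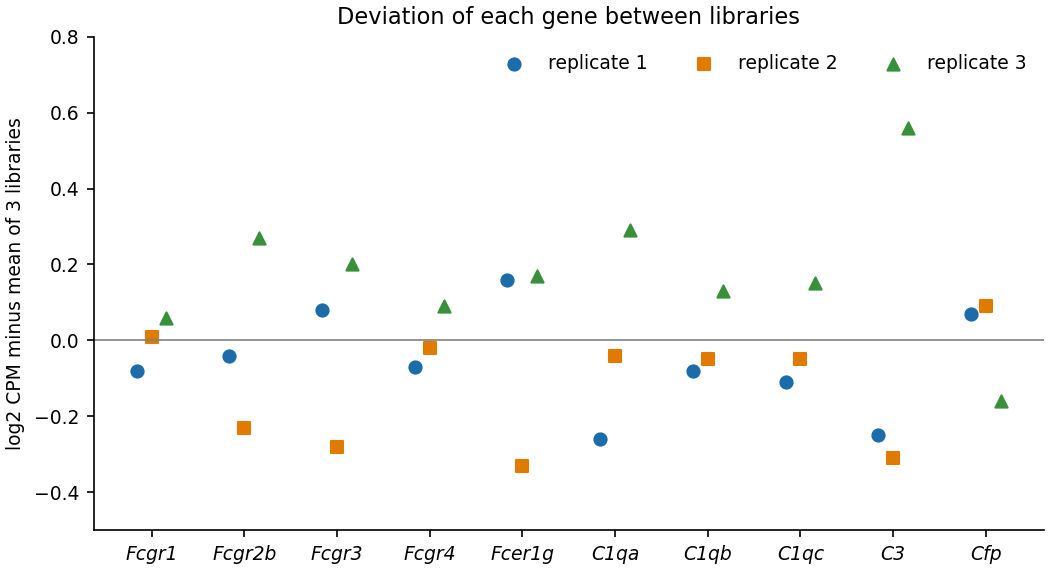
Log2 CPM of each of the 10 genes minus its mean over the 3 libraries, with a point for each of replicates 1, 2 and 3. Replicate 2 is lowest for Fcgr2b, Fcgr3 and Fcer1g, and C3 in replicate 3 stands highest at 0.56.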

How the data were processed

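RNA was measured in 3 libraries of a single group, and grouping follows the labels. Per the text records deposited with the files, the assembly was mm10 and the annotation GENCODE M21; tool versions and strandedness: not given in the sources used here. Per the file headers, the authors deposited expected counts and TPM per gene and transcript from transcriptome alignments, in the columns RSEM writes, and estimated counts and TPM per transcript made from the reads, in the columns kallisto writes. The authors' TPM is scaled over all rows of a table, small abundant RNAs included. Counts are not normalized, and molecules were not tagged, so floors cover counting error only.

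Levels were the alignment-based gene TPM; a gene was detected at 1 TPM in every library. Alignment-free transcripts were summed to genes. Rows that are no gene (0.1863, 0.1672 and 0.0395% of counts) stayed out of library sizes. Expected counts were rounded, scaled with TMM in edgeR 4.0.16 (R 4.3.3) and turned into log2 CPM with a prior count of 2 for genes of mean count 100 or more. Replicate counts differed beyond sampling noise (chi-square per degree of freedom 62.6 to 111). The spread step was tested on simulated data. Exons, 31-base words and sequences came from the GENCODE M21 reference on mm10. Python 3.11.15 with numpy 2.4.6, pandas 2.3.3 and matplotlib 3.10.9 was used for the rest.

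The genes and lists were chosen with earlier results of these data known. The text names, by rule, all 10 genes, of each other list up to 3 of highest mean TPM and up to 2 of lowest mean TPM below 1 TPM in all libraries, the leading gene of a marker list, the genes of most like pattern, and Malat1. Alternatives were the alignment-free tables, TPM over nuclear protein-coding genes, protein-coding transcripts alone, a pseudocount of 0.1 TPM, detection at 0.5 and 5 TPM, shares of expected counts, library size or DESeq2 1.42.0 size factors, a mean count of 20 or no filter, and each replicate left out.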

Additional observations from a re-analysis of the deposited data

How the results depend on the processing

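Depth limits the C3-202 share and the genes near 0. Strandedness, reads shared by Fcgr2b and Fcgr3, and the correction for length limit the receptor ratio. The 3 C1q ratios and both receptor ratios moved by less than their SD between libraries with alignment-free TPM, with protein-coding transcripts alone and with a pseudocount. The median level of the 10 genes was 53.9 alignment-free TPM and 698 TPM over nuclear protein-coding genes, against 177 TPM, since each TPM is scaled over other rows. The number detected was 10 at 0.5 TPM, 9 at 5 TPM and 9 with alignment-free TPM; the exception was C3 in both cases, with 1.31, 0.660 and 1.30 alignment-free TPM. The median share of the leading transcript was 93.4% in alignment-free TPM and 99.2% of expected counts, and the median share on other types was 0.600% of expected counts; the cause was not tested. The median SD of log2 CPM was 0.193 to 0.224 with the other scalings, filters and table. The count over 2-fold was 0 for each pair under every alternative, and each pair already leaves out the remaining library.

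Without each replicate in turn, the median level ranged from 152 to 194 TPM, and the log2 ratio of C1qa to C1qb from -3.82 to -3.65, of C1qc to C1qb from -0.49 to -0.46 and of C1qa to C1qc from -3.32 to -3.18. The activating over inhibitory ratio ranged from 1.02 to 1.12 and the Fcer1g ratio from 0.72 to 0.87. The leading share ranged from 95.7 to 97.8%, the other-type share from 1.93 to 2.06% and the median SD from 0.0526 to 0.203. No paired analysis was possible because the series holds a single group.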
